A study of Mus musculus with 4 samples.

Results

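The Hox genes and their Cdx regulators were followed gene by gene in the node region of early mouse embryos that carried 1 or 2 copies of a GFP allele of Noto. Members were taken by name: gene probes called Hox with a cluster letter a, b, c or d and a number from 1 to 13, together with Cdx1, Cdx2 and Cdx4. Reported here are 40 genes (37 Hox and 3 Cdx) on 52 of the 41174 gene probes, and Hoxc11 was not analysed here. A gene counted as measured when its probe was well above background, by the scanner software's flag, in at least 1 genotype on both arrays. By that rule 28 members were measured (25 Hox and 3 Cdx).

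The compared groups were Noto GFP/+ heterozygotes and Noto GFP/GFP homozygotes, both of the NotoGFP strain on an Sv129/CD-1 hybrid background, at the early headfold stage, about E7.75. Both groups carry at least 1 GFP allele, so no embryo without it was compared, although the series' own text speaks of wildtype material. The distal tissue around the ventral node was dissected from each embryo, in pools of 120 to 150 pieces, and the labels differ on how large a part of the embryo was taken. The comparison asks which genes differ in the node region when both Noto copies carry the GFP allele. Noto encodes a homeodomain factor of the node and the notochord. Noto was not analysed here, and the labels are therefore unchecked by it.

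The 4 samples were 2 Agilent 2-colour arrays of the same pair of RNA pools, with the dyes exchanged: the homozygote carried Cy5 on array 1 and Cy3 on array 2. There was 1 pool per genotype, so no test was made. Each ± is the SD over the 2 arrays and measures technical spread only. Ratios are log2 of homozygote over heterozygote on each array. Levels are normalized log2 intensities of a probe and are set against each other only between samples for the same probe, apart from the descriptions by probe brightness. A gene was called when both arrays gave a ratio of 1.5-fold or more (0.58 as log2) with 1 sign. Gene spots well above background made up 77.7% (heterozygote) and 81.5% (homozygote) on array 1, and 68.1% and 64.0% on array 2.

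Hox genes encode homeodomain transcription factors that give body segments their identity along the head-to-tail axis. They lie in clusters, and by the rule called colinearity the genes with low paralogue numbers are switched on earlier and reach further forward than those with high numbers. Cdx genes encode related homeodomain factors of the posterior embryo that activate Hox genes from the middle of the clusters, and Wnt, FGF and retinoic acid signals act upstream of both. The first Hox transcripts of the mouse appear in the posterior primitive streak and spread toward the node region before the headfold stage.

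Promoter sequences are shown for 3 members that stand for the ends and the middle of the results: Hoxb1 at the early end, Hoxc4 as a called gene and Hoxd13 at the late end. Each is the 250 bases before the gene's start in RefSeq (GRCm38.p6), 5′ to 3′ on the gene's strand. The windows lie at chr11:96365508-96365757 (Hoxb1), chr15:103034145-103034394 (Hoxc4) and chr2:74667975-74668224 (Hoxd13), all on the plus strand. Capitals mark matches, on either strand, to 3 motifs: TTTATG (Cdx), AGGTCA (the core of nuclear receptor elements, retinoic acid receptors included) and TGATNNAT (Pbx-Hox). None of the 3 contains another.
Hoxb1: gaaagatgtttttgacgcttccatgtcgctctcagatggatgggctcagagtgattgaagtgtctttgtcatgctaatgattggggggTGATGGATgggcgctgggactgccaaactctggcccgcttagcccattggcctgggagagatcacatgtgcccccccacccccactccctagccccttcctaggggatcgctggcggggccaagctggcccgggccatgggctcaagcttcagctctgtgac
Hoxc4: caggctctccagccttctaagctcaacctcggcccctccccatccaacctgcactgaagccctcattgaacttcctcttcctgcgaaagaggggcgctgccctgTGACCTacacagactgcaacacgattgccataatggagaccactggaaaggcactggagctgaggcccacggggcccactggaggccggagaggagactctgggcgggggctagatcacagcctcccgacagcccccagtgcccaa
Hoxd13: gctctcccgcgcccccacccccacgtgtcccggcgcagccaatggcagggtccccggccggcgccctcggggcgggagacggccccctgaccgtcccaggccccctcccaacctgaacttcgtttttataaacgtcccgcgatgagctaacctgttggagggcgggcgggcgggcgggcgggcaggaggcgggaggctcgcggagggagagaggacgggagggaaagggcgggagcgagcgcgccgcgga
The Hoxb1 window held 1 match to the Pbx-Hox motif, the Hoxc4 window held 1 match to AGGTCA in reverse (TGACCT), and the Hoxd13 window held none of the 3 (0 matches). GC content was 59.2%, 62% and 74.4% in the same order. Promoter windows were found for 24 of the 40 members (26 windows). TTTATG occurred in 5 of the 26 windows, 19.2% against 10.8% of all 32851 windows of the table. The windows with it were those of Hoxa7, Hoxb8, Hoxd3, Hoxd4 and Hoxd11. AGGTCA occurred in 6, 23.1% against 14%, and TGATNNAT in 4, 15.4% against 7.68%. A match describes letters in a window and does not show binding.

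Detection was most complete at the early end of the clusters. By the probe used for each gene, the 11 Hox genes with paralogue numbers 1 to 4 were each well above background in all 4 samples. A second, dimmer probe was so in 1 of 4 samples for Hoxa4 and in 0 for Hoxd3. Of the 11 genes with numbers 5 to 8, 8 were measured, and of the 15 with numbers 9 to 13, 6 were. Of the 11 with numbers 10 to 13, 3 were measured: Hoxa11, Hoxd12 and Hoxd13. By cluster, 8 of 10 Hoxa, 9 of 10 Hoxb, 3 of 8 Hoxc and 5 of 9 Hoxd genes were measured. The order was not the same in every cluster: in Hoxd, genes 8 to 11 were not measured while Hoxd12 and Hoxd13, further along, were. The second Hoxd13 probe was well above background in 2 of 4 samples, both on array 1, and was not measured.

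Of the 12 members that were not measured, 4 were well above background in no sample (Hoxc8, Hoxc10, Hoxc12 and Hoxd11). Another 4 (Hoxa10, Hoxa13, Hoxb13 and Hoxc13) reached it only in the homozygote on array 1, the sample with the largest share of such spots among all genes. The last 4 (Hoxc6, Hoxd8, Hoxd9 and Hoxd10) reached it in both genotypes on array 1 and in neither on array 2. No member was well above background in 1 genotype on both arrays while below it in the other on both.

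**Figure D1:**
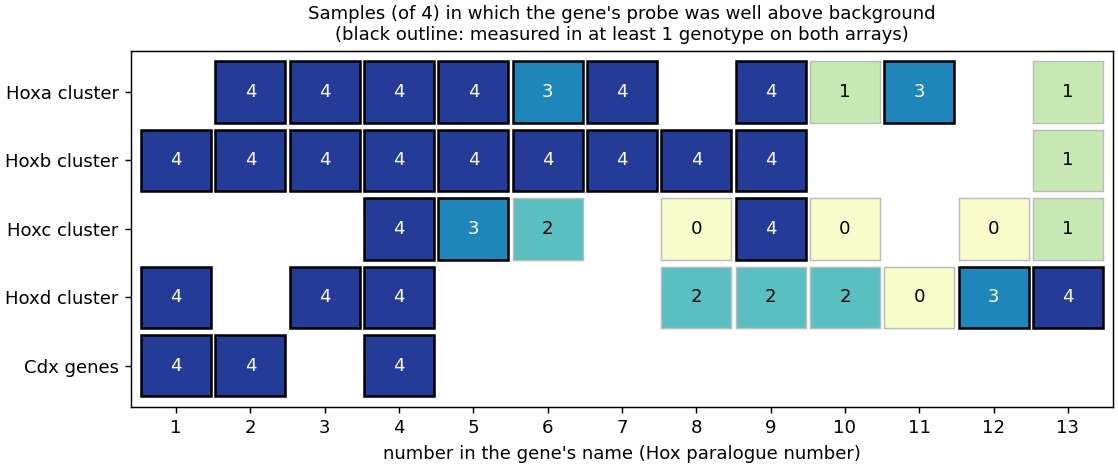
Number of samples, of 4, in which each gene's probe was well above background, by cluster (rows) and number in the gene's name (columns). A gene with several probes is shown by the brightest measured one, or by the brightest where none was measured. Black outlines mark the 28 measured members. The 11 Hox genes numbered 1 to 4 show 4 of 4 samples, and the sparse cells lie toward number 13 and in the Hoxc cluster.

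Of the 28 measured members, 2 were called lower in the homozygote, Hoxb6 by 1 of its 2 probes and Hoxc4, and 0 were called higher. That is 7.14% lower, against 2.34% lower and 0.0591% higher among all 18606 measured genes (435 and 11 genes). In both directions together 2.4% of all genes were called. In the authors' deposited value table the split over all genes was 649 lower and 95 higher. Among genes dimmer than the median of all measured genes, where both called members lie, 4.04% were called lower, against 0.634% of the brighter ones. Of the members, 16 had ratios below 0 on both arrays (57.1% against 34% of all genes), 5 had ratios above 0 on both (17.9% against 25.7%) and 7 had mixed signs. The median ratio of the members was -0.13, with -0.13 on array 1 and -0.052 on array 2, beside -0.018 for all measured genes. With each array centred on its median in place of loess, the median of all genes moved to 0.12 and that of the members to -0.027, and 10 members were below 0 on both arrays. In bulk tissue, fewer cells of a type and less RNA per cell cannot be told apart.

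Hoxc4, a gene of the posterior hindbrain and neck region, was called lower. Its level was 11.43 and 11.38 in the heterozygote and 10.54 and 10.12 in the homozygote (arrays 1 and 2). Both homozygote values lay below both heterozygote values. The ratio was -0.89 on array 1 and -1.26 on array 2, a mean of -1.07 ± 0.26 or 2.11-fold lower. Its probe was the only Hoxc4 probe, placed by the files at chr15:102864144-102864186 (build mm8). With median centring Hoxc4 was -0.50 on array 1 and missed the call. Its neighbour Hoxc5, a paralogue of Hoxa5 and Hoxb5, had levels of 6.90 and 7.77 in the heterozygote and 7.02 and 7.30 in the homozygote. Hoxc5 was well above background in 3 of 4 samples, and its ratios had opposite signs (0.12 and -0.47).

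Hoxb6, a trunk Hox gene of the middle of its cluster, was read by 2 probes that gave different answers. The brighter probe lay at chr11:96115057-96115116 and carried the sequence record X56459. Its level was 11.65 and 11.03 in the heterozygote and 10.53 and 9.72 in the homozygote, so the homozygote was the lower sample on each array and the groups did not overlap. The ratios were -1.12 and -1.31, a mean of -1.22 ± 0.14 or 2.32-fold lower. The other probe lay at chr11:96117339-96117398 (both mm8), with its start 2282 bases further along the plus strand, and carried the record NM_008269. Its level was 9.96 and 9.88 in the heterozygote and 10.19 and 9.90 in the homozygote. Its ratios were 0.22 and 0.027, a mean of 0.12 ± 0.14, so it was not called. Both probes were well above background in all 4 samples. The call for Hoxb6 therefore rests on 1 probe, and which transcripts each probe reads was not tested.

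Other members with several probes differed less. Of the 12 members with 2 probes, 6 had both measured, and apart from Hoxb6 the probe means differed by at most 0.15 (Hoxb8). Hoxb9 was the only other member whose probes had opposite signs, at -0.076 and 0.040. The second Hoxb2 probe lies on the strand opposite to Hoxb2, so it may read another transcript, and gave -0.33 beside -0.23.

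**Figure D2:**
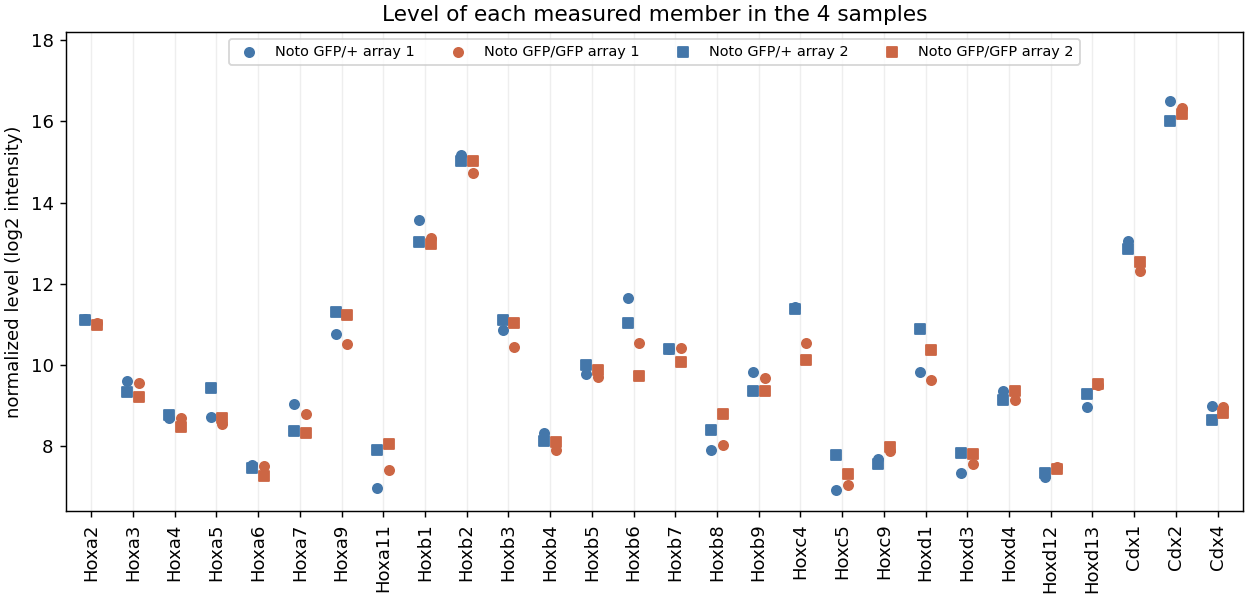
Normalized level (log2 intensity, after loess and scaling between arrays) of the 28 measured members in the 4 samples. Circles are array 1 and squares array 2, with Noto GFP/+ in blue and Noto GFP/GFP in orange. Hoxb6 (brighter probe) and Hoxc4 show both homozygote points below both heterozygote points; levels of different genes come from different probes and are not comparable.

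The genes at the early end of the clusters, numbered 1 and 2, pattern the hindbrain. Hoxa2, which patterns the hindbrain and branchial arch crest, was at 11.12 and 11.10 in the heterozygote and 11.02 and 10.97 in the homozygote. Its ratios of -0.10 and -0.14 were small, and its mean turned to 0.049 with median centring, where the median of all genes was 0.12. Hoxa3, which is needed for thymus and parathyroid, was at 9.59 and 9.33 against 9.54 and 9.21. Its groups overlapped, and its ratios were -0.042 and -0.12.

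Hoxb1, which sets the identity of rhombomere 4 and whose promoter is shown above, had levels of 13.58 and 13.02 in the heterozygote and 13.12 and 12.97 in the homozygote, on 10 spots per array. The groups overlapped, since array 1's homozygote lay above array 2's heterozygote. Hoxb2, a hindbrain gene downstream of Hoxb1, was at 15.16 and 15.04 against 14.72 and 15.01, without overlap. The 4 genes at the early end of Hoxb had like ratios with loess. Hoxb1, Hoxb2, Hoxb3 and Hoxb4 had ratios of -0.46, -0.44, -0.42 and -0.42 on array 1, where the homozygote carried Cy5. On array 2 the same genes had -0.050, -0.023, -0.054 and -0.042. All 4 were farther from 0 on array 1. With median centring this likeness was lost: array 1 gave 0.10, 0.31, -0.067 and -0.54 in the same order. The part of the dye in these values was not tested.

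Hoxd1, the early gene of its cluster, was at 9.82 and 10.89 in the heterozygote and 9.63 and 10.37 in the homozygote. Its ratios were -0.19 and -0.52, and the groups overlapped because the arrays differed by more than the genotypes. Hoxd3, a gene of the upper neck vertebrae, had levels of 7.32 and 7.82 against 7.55 and 7.80. Its ratios of 0.23 and -0.019 differed in sign, and its mean of 0.10 turned to -0.062 with median centring. Both other genes numbered 4 had mixed signs: Hoxa4 had 0.019 and -0.28, and Hoxd4 -0.22 and 0.24.

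Across numbers 1 to 4, 8 of the 11 genes had ratios below 0 on both arrays and 0 above 0 on both, with a median of -0.23 and 1 call (Hoxc4). For numbers 1 and 2, 4 of 4 genes were below 0 on both, with a median of -0.24. Among the 4 members brighter than the median gene (Hoxb1, Hoxb2, Cdx1 and Cdx2), 3 were below 0 on both arrays, against 25.1% of all genes that bright. Of the 24 dimmer members, 13 were (54.2% against 42.9%). Relative to the median of all genes, that of numbers 1 to 4 was -0.21 with loess and -0.18 with median centring. With centring, however, 4 of the 11 genes were below 0 on both arrays, and 0 of the 4 numbered 1 and 2. The median of all genes was then 0.12, so 0 was not the middle of the genes in that setting.

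The genes numbered 5 to 8 give identity to the neck and thoracic levels. Of the 8 measured, 5 were below 0 on both arrays and 1 above 0 on both, with a median of -0.14 and 1 call (Hoxb6). Hoxa5, needed for the airway and for neck vertebrae, had ratios of -0.17 and -0.72. Its level was 8.70 and 9.42 in the heterozygote against 8.54 and 8.70 in the homozygote, with the heterozygote on array 2 standing highest. The groups did not overlap, but only just: 8.701 (heterozygote, array 1) against 8.698 (homozygote, array 2). Hoxb5 had -0.075 and -0.13, and Hoxa7 had -0.24 and -0.032. Hoxa6, well above background in 3 of 4 samples, had -0.018 and -0.20, and Hoxb7 had 0.012 and -0.31. Hoxb8 was the only gene of the 8 above 0 on both arrays, with ratios of 0.13 and 0.38, and with median centring its array 1 ratio was -0.028. Its level was 7.90 and 8.39 in the heterozygote and 8.03 and 8.78 in the homozygote, and the groups overlapped.

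The genes numbered 9 to 13 pattern the lumbar, sacral and tail levels and the limbs. Of the 6 measured, 4 had ratios above 0 on both arrays (66.7%, against 25.7% of all genes). The other 2 were below 0 on both (33.3% against 34%), and 0 were called. Of the 4 above 0, Hoxa11 counted as measured on array 1 only through the homozygote, where it was higher. Among the 4 genes well above background in all 4 samples, 2 were above 0 on both arrays and 2 below. With median centring 2 of the 6 were above 0 on both (Hoxa11 and Hoxd13) and 0 below. Hoxa9, a gene of lumbar identity and of blood progenitors, was at 10.75 and 11.31 in the heterozygote and 10.50 and 11.22 in the homozygote. Hoxb9, which acts with it, was at 9.83 and 9.35 against 9.67 and 9.35. These are the 2 genes below 0, with mean ratios of -0.17 ± 0.12 and -0.076 ± 0.11. The Hoxb9 mean turned to 0.015 with median centring, where the median of all genes was 0.12.

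Hoxc9, a thoracic gene, was at 7.68 and 7.56 in the heterozygote and 7.88 and 7.97 in the homozygote. Both homozygote values lay above both heterozygote values, with ratios of 0.21 and 0.41. Hoxd13, the last gene of its cluster, known for digits and the genital bud, was at 8.96 and 9.29 against 9.50 and 9.53. The groups did not overlap, and its ratios of 0.54 and 0.24 gave the highest mean of the measured members with loess, 0.39 ± 0.21, short of the call. Hoxd12 was at 7.22 and 7.32 against 7.47 and 7.43, with ratios of 0.25 and 0.11. Hoxa11, a limb and uterus gene, was at 6.95 and 7.89 against 7.41 and 8.05, with overlapping groups. Hoxd12 and Hoxa11 were each well above background in 3 of 4 samples. Hoxd12 fell short in the homozygote on array 2. Hoxa11 fell short in the heterozygote on array 1, so on that array only the homozygote made it count as measured.

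The median of these 6 genes was 0.24, or 0.26 above that of all genes, but with median centring it lay 0.059 below it (-0.059). It lay 0.43 above with the scanner software's own ratio and 0.35 above in the authors' deposited value table. Among the 4 well above background in all 4 samples, 2 were above 0 and 2 below, with a median of 0.12. Of the 4 genes above 0, 3 had larger means in both kinds of processed values. In the software's ratio and in the value table, in that order, Hoxa11 had 0.92 and 0.71, Hoxc9 0.60 and 0.57, and Hoxd13 0.51 in both. Hoxd12 had 0.34 in the first and 0.18 in the second. That second mean was as with loess, but its ratios had opposite signs there (0.40 on array 1 and -0.035 on array 2). None of these 4 was called in either, since 1 array or both stayed under the size each time.

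**Figure D3:**
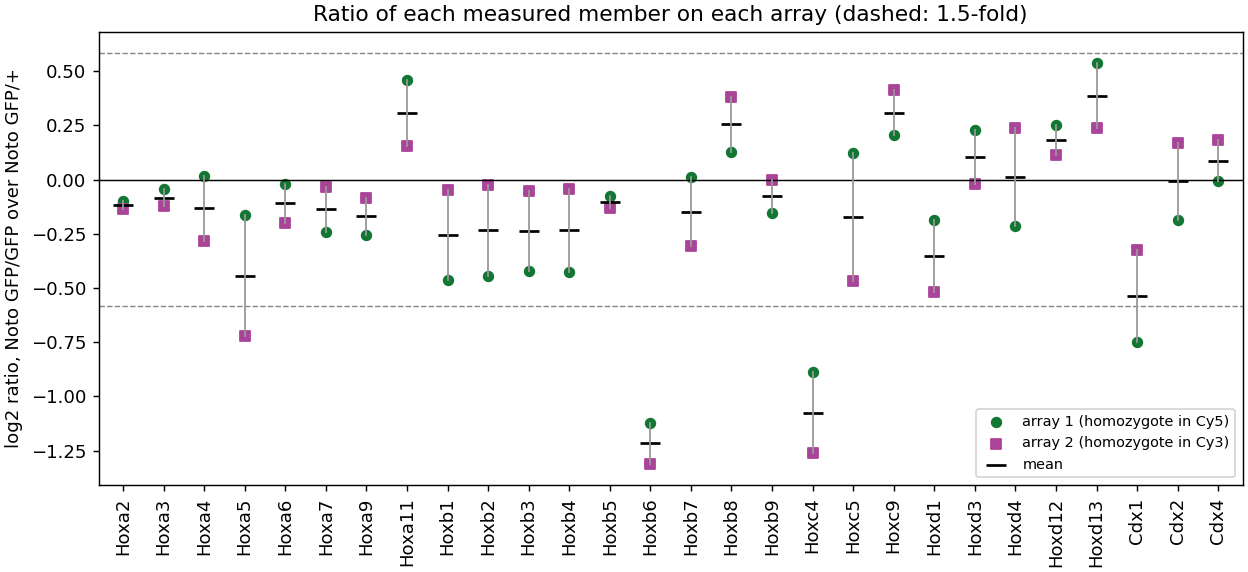
Log2 ratio of Noto GFP/GFP over Noto GFP/+ on each array for the 28 measured members, with a bar at the mean and dashed lines at 1.5-fold. Hoxb6 (brighter probe) and Hoxc4 lie past the lower line on both arrays, Hoxa5 and Cdx1 on 1 array each, and no member passes the upper line; with median centring Hoxc4 passes on array 2 alone.

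All homozygote values lay below all heterozygote values for 7 members (25%, against 16.6% of all measured genes): Hoxa2, Hoxa5, Hoxb2, Hoxb4, Hoxb6, Hoxc4 and Cdx1. They lay above for 3 (10.7%, against 10.7%): Hoxc9, Hoxd12 and Hoxd13. For Hoxa5 (8.701 against 8.698) and Hoxb2 (15.04 against 15.01) the nearest values of the 2 genotypes were close. At a smaller call size, 0.32 as log2 on each array, 3 members were lower (Hoxb6, Hoxc4 and Cdx1; 10.7% against 6.36%) and 0 higher (against 1.18%).

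Across the 25 measured Hox genes the mean ratio went up with paralogue number (Pearson's r = 0.453, Spearman's rho = 0.538). These figures are across genes, which are not independent replicates, and describe these 2 arrays. On array 1 alone r was 0.511 and on array 2 alone 0.334, and with median centring the mean ratio gave 0.347. The mean over a gene's probes gave 0.573. Without the 2 called genes, which were left out by their ratios, r was 0.708 over 23 genes. With only the 21 genes well above background in all 4 samples r was 0.355. Probe brightness, the mean level over the 4 samples, moved along with both: r was -0.466 between brightness and paralogue number and -0.417 between brightness and ratio. Over all 18606 genes the ratio and brightness had r = 0.147. The part of brightness in the order by paralogue number was not tested.

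**Figure D4:**
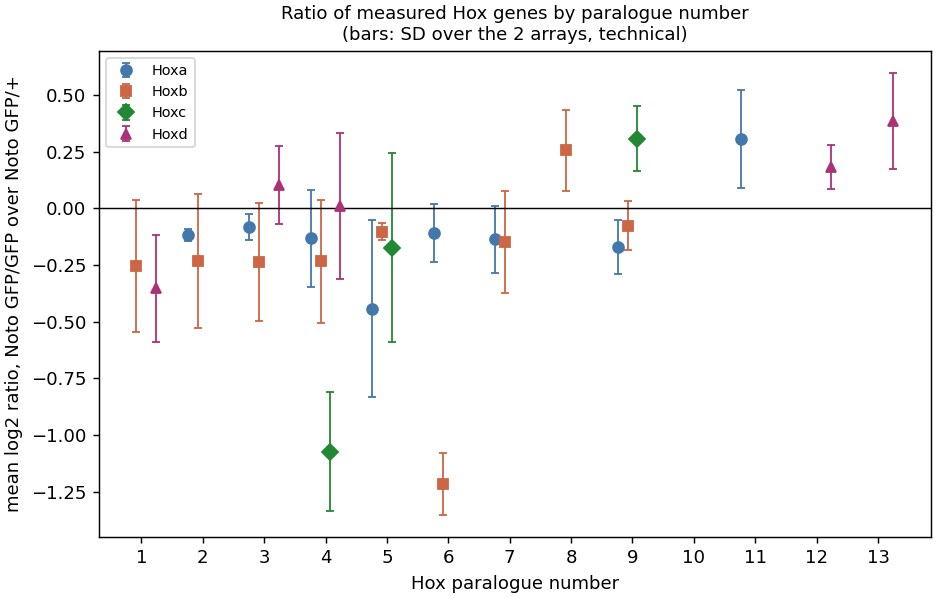
Mean log2 ratio of the 25 measured Hox genes against paralogue number, by cluster, with bars for the SD over the 2 arrays. Genes numbered 1 and 2 lie below 0 and those numbered 11 to 13 above 0 with loess. With median centring the Hoxa2 mean lies above 0 but below the median of all genes (0.12). The positive median of genes 9 to 13 then becomes negative relative to all genes (-0.059).

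The 3 Cdx genes were each well above background in all 4 samples, and none was called. Cdx1, a target of Wnt and retinoic acid that acts on vertebral identity, came nearest to a call of the members not called, by the smaller of its ratios. It was at 13.05 and 12.86 in the heterozygote and 12.30 and 12.53 in the homozygote. The groups did not overlap, and its ratio reached the size of a call on array 1 (-0.75) but not on array 2 (-0.33). With median centring both ratios were under that size (-0.23 and -0.43). Cdx2, needed for the trophectoderm and for axial growth, was at 16.51 and 16.02 against 16.32 and 16.19. Its ratios of -0.19 and 0.17 had opposite signs and the groups overlapped, and its mean of -0.0078 turned to 0.22 with median centring. Cdx4, which lies on the X chromosome and acts with Cdx1 and Cdx2 in axial growth and blood formation, was at 8.98 and 8.63 against 8.97 and 8.81. Its ratios were -0.0082 and 0.18.

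Between the outermost Hox probes of the 4 clusters lay 9 probes of other names, of which 1 was measured. It reads Hoxaas2, an antisense transcript of the Hoxa cluster (chr6:52098691-52098750, plus strand, mm8), opposite to the Hoxa genes. Its level was 10.36 and 10.57 in the heterozygote and 10.01 on both arrays in the homozygote, so the groups did not overlap. Its ratios of -0.35 and -0.56 gave a mean of -0.46 ± 0.15, and it was not called. Its Hoxa neighbours, Hoxa2 and Hoxa3, had means of -0.12 and -0.082.

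Among genes that act with Hox and Cdx, 1 was called. The 9 TALE homeobox cofactors, Pbx, Meis and Pknox proteins that bind DNA with Hox proteins, were all measured with 0 calls and a median of -0.16. The values farthest from 0 were those of Meis2 (-0.31) and Meis3 (-0.27). The inducers in the Wnt, FGF and retinoic acid pathways, with Gdf11, had 17 measured of 18, 0 calls and a median of -0.019. Rarb, a retinoic acid receptor and target, was at -0.39 and T, the streak and notochord factor, at 0.33. Of the genes that others have reported to depend on Cdx, 11 of 12 were measured and 1 was called lower: Meox1, a somite homeobox gene, at -0.62 ± 0.039. It was not called with median centring or with the mean over its probes. Their median was -0.0067, and Tal1, the blood regulator, at -0.47 was next.

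The 10 genes listed as hindbrain and posterior neural regulators of Hox genes include Gata6 (-0.30), which is not a neural gene. The list had a median of -0.27 with 0 calls, 6 below 0 on both arrays and 2 above. Relative to all genes this median was -0.25 with loess, -0.16 with median centring and -0.076 with the mean over each gene's probes. Zic2, a neural plate zinc finger gene, was at -0.64, and Pax6, a factor of the neural tube and eye, at 0.45. The summed level of the 10, Gata6 included, was 17.12 and 17.08 as log2 in the heterozygote. It was 16.73 and 16.87 in the homozygote, lower on each array. The early Hox genes are active in hindbrain and posterior neural tissue, and the part of a smaller neural share of the pieces was not tested.

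The chromatin regulators of Hox clusters had medians near that of all genes. Polycomb genes, which keep Hox clusters silent, had 20 of 21 measured, 0 calls and a median of -0.030. Rbbp4 (-0.29) and Phf1 (-0.28) were farthest from 0. Trithorax genes, which keep them active, had 12 of 12 measured, 0 calls and a median of 0.035. Kdm6b, a demethylase of the Polycomb mark, was at -0.39, and Kmt2d, a histone methyltransferase of active enhancers, at 0.14. Of 8 homeobox genes that flank the clusters or belong to the ParaHox family, 6 were measured, with 0 calls and a median of -0.069. Mnx1, a notochord and motor neuron gene, was at -0.45, and Evx2, the neighbour of Hoxd13, at -0.21.

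Marker lists show what tissue the pools held. Node and notochord markers were measured for 12 of 13 genes, with summed levels of 17.57 and 17.33 in the heterozygote and 17.59 and 17.55 in the homozygote. By probe brightness, Foxa2, Gdf1 and T weigh most in these sums. The list's median was -0.017, with 5 below 0 on both arrays and 3 above. Lefty2 among them, an inhibitor of Nodal signalling, was called higher (0.82), and 0 were called lower. Foxj1, a regulator of motile cilia, was next from 0 at -0.52. Lefty1 (-0.51), Shh (-0.44), Nog (-0.40) and Dand5 (-0.094) were also below 0 on both arrays. The 3 above 0 on both were Lefty2, T (0.33) and Chrd (0.078). Markers of the posterior streak and presomitic mesoderm, where Hox genes first come on, were measured for 12 of 12 genes with 0 calls and a median of 0.0042. The streak factor T (0.33) and the somite clock gene Hes7 (0.32) were farthest from 0. T had 0.32 and 0.34 on arrays 1 and 2, but the Hes7 ratios had opposite signs (-0.042 and 0.67). The list's summed levels were 18.06 and 18.27 against 18.09 and 18.28, higher in the homozygote on each array by little.

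Anterior neural markers had 6 of 9 measured, 0 calls and a median of 0.018, with 3 above 0 on both arrays and 3 below. Rax (0.35), of the eye field, and Gbx2 (-0.30), of the boundary between midbrain and hindbrain, were farthest from 0. The median and the summed level differed in direction: the sum was 15.55 and 15.87 in the heterozygote and 15.24 and 15.66 in the homozygote. Relative to all genes the median was 0.037 with loess and -0.042 with median centring. Visceral endoderm (12 of 12), definitive endoderm (9 of 10) and allantois and blood markers (9 of 12) had 0 calls each, with medians of 0.015, -0.013 and -0.17. Farthest from 0 were Apoc2 (-0.25) and Cubn (0.24) in the visceral endoderm list and Foxa3 (-0.51) and Epcam (0.24) in the definitive endoderm list. In the allantois and blood list they were Tal1 (-0.47) and Hand1 (-0.33). Of 10 trophoblast and decidua markers, 8 were measured, with a median of -0.092, 4 below 0 on both arrays and 4 above. The decidual prolactin family gene Prl8a2 was called higher (1.11), and Prl3d1 of the same family was next from 0 at 0.36. The part of other cell types in the Hox ratios was not tested.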

How the data were processed

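RNA of 1 pool per genotype was hybridised on 2 arrays. Per the file headers, the authors scanned them and read them with Agilent Feature Extraction 9.5.3.1, which wrote foreground and background intensity per spot, a log10 ratio of red over green, and flags. The authors also deposited a value table of processed intensity, floored at 15, whose scale factor is not stated and whose columns had medians of 95.1 to 110.6. The scanner files of paired samples were identical, and an array entered the tables once. Slide and scan time differed between arrays, but each array held both genotypes, so every ratio is within a slide.

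From the mean foreground and median background, limma 3.58.1 (R 4.3.3) applied normexp (offset 50) and loess with control spots at weight 0. After these steps 179 and 165 outlier spots were left out of the averages per probe. No gene spot was saturated (0). Array 2 was turned to homozygote over heterozygote. Levels are log2 values after loess and Aquantile scaling, computed from the deposited intensity. Spots were averaged per probe, and a gene took its brightest measured probe (27788 probes, 18606 genes). Names of 33102 probes were updated through RefSeq (GRCm38.p6), and 8072 kept the file's name. Probe positions are mm8, per the file headers, and promoter positions GRCm38.p6. Python 3.11.15 with pandas 2.3.3, numpy 2.4.6 and matplotlib 3.10.9 made summaries and plots.

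The call rule was tested on simulated data, in which every change was 2-fold or larger and the noise was set in advance. Of 129 changed probes among 27788 for this comparison, 98.4% were called in the right direction. That share belongs to the simulated data only. How well the rule finds differences of the sizes and spread seen for the members was not tested. The number of arrays limits the precision.

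The members and the lists of related genes were chosen with earlier results of these data known. Some genes that the naming rule takes are not reported here and stay out of the counts of members and lists. Named by rule were the members, with levels given for Cdx genes, called members, the 2 lowest and 2 highest numbered measured genes of each cluster, and the 3 highest and 3 lowest mean ratios of 1 sign. Of each list, up to 4 called genes were named by size, or, with fewer than 2 called, the 2 farthest from 0. Hoxa5 levels and, in the node list, the ratios of Lefty1, Shh, Nog, Dand5, T and Chrd were added after their values were seen. Alternatives covered background correction, dye normalization, the value table, probe choice, filters, call size and leaving out an array.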

Additional observations from a re-analysis of the deposited data

How the results depend on the processing

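With 1 pool per genotype nothing here measures the spread between embryos or pools, and the 2 arrays show technical spread only. No paired analysis was possible because there was 1 pool per genotype, with no replicate pools to pair; each ratio is taken within 1 array. The count of members called higher was 0 under every alternative, and the same 2 lower calls, Hoxb6 and Hoxc4, were made without background correction, with the scanner software's ratio, in the authors' value table and with no filter on dim probes or a stricter one. The lower count was 1 with median centring (Hoxb6), 1 with the mean over a gene's probes (Hoxc4), 1 at 2-fold (Hoxb6) and 3 at the smaller call size of 0.32 as log2. Of the alternatives chosen after seeing the data, the dimmer Hoxb6 probe gave 1 (Hoxc4) and turned Hoxb6 to 0.12, and array 2 left unturned, which counts genes that follow the dye, gave 0. On a single array the lower count was 3: without array 2 Hoxb6, Hoxc4 and Cdx1, and without array 1 Hoxa5, Hoxb6 and Hoxc4. The members' median was -0.027 with median centring, and -0.13 to -0.052 on a single array. With median centring the means of 4 members changed sign (Hoxa2, Hoxb9, Hoxd3 and Cdx2), and 0 did under the other 6 normalization, probe and filter settings. The median of all genes was 0.12 with centring. Hoxa2 (0.049), Hoxb9 (0.015) and Hoxd3 (-0.062) lay below it there, and Cdx2 (0.22) above. Over all genes, 11 were called higher and 435 lower, beside 101 and 711 with the software's ratio, 95 and 649 in the value table, 113 and 943 without array 1, 125 and 642 without array 2, and 10 and 4 with array 2 unturned. Signal over background limits the members with high numbers, most of which were not measured.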
